A study of Mus musculus with 2 samples.

Results

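Translation initiation factors (Eif genes) and elongation factors (Eef genes) were followed in mouse urothelial organoids under 2 culture conditions. Members were all gene symbols that begin with Eif or Eef followed by a digit. Of 31053 gene identifiers, 69 carried such a symbol, and 65 of the 69 had at least 20 counted RNA molecules over both libraries. Over the same minimum, 12904 genes were tested in all. The remaining 4 members, Eef1a2, Eif2c5, Eif4e1b and Eif4ebp3, had 0 counts in both libraries.

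Single-cell RNA was measured with the 10x Genomics 3′ chemistry in organoids grown from unsorted cells of normal urothelium, the epithelium that lines the bladder. Both groups came from C57BL/6 mice of WT genotype aged 8 to 10 weeks. The proliferative group (P, labelled NMU-O-P) was kept in complete medium, and the differentiated group (D, labelled NMU-O-D) in a medium without WNT3A, RSPO1, EGF, Noggin and the TGF-β receptor inhibitor LY2157299. Each group was 1 library, so no difference below had a replicate check and no test was made, and how many mice contributed to each library is not given in the sources used here.

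Kept cells numbered 6818 of 8194 barcodes in P and 4896 of 6975 in D, with 26681469 and 20305621 unique molecular identifiers (UMIs, 1 per captured RNA molecule). Median UMIs per cell were 3405.5 and 3227.5. The epithelial markers Krt5 and Epcam were detected in both libraries (94287 and 80280 UMIs of Krt5, 8495 and 9558 of Epcam), and Upk3a, a uroplakin of luminal cells, at 4 UMIs in P against 6884 in D. The 12 proliferation markers summed to 214 counts per 1000000 UMIs (CPM) in P and 25.1 in D. The 5 fibroblast markers summed to 46 UMIs in P and 1269 in D, of which 1234 were Dcn, while Col1a2 was at 0 in both. The 6 leukocyte markers summed to 25 and 410 UMIs, mostly Laptm5, with Ptprc at 1 and 2 UMIs. The 4 endothelial markers summed to 138 and 67 UMIs with Cdh5 and Kdr at 0, the 4 erythroid markers to 0 and 1, and the 3 smooth muscle markers to 2 and 3. Of the kept cells, 6 barcodes occurred in both libraries.

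Protein synthesis starts when eIF2 carries the initiator methionyl-tRNA to the small ribosomal subunit, and the eIF3 complex holds that subunit together with the cap-binding complex eIF4F. The subunit scans to a start codon, the large subunit joins, and eEF1A and eEF2 then drive elongation. Many mRNAs of the elongation factors and of ribosomal proteins begin with a 5′ terminal oligopyrimidine tract, a TOP, through which mTORC1 and LARP1 control their translation and stability. The 4E-BPs, encoded by Eif4ebp genes, bind eIF4E and block cap-dependent initiation until mTORC1 phosphorylates them.

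Factor RNA formed a smaller part of the UMIs in D, mostly through the TOP-list genes, while the sum of the other factors differed little on the CPM scale. Factor UMIs numbered 673907 in P, 2.53% of all UMIs, and 369255 in D, 1.82%. The log2 ratio of D over P was -0.47 (95% interval -0.48 to -0.47). That interval, like every other one given here, covers counting error only. Of these UMIs, 491745 in P and 232790 in D came from 9 TOP-list genes (Eef1a1, Eef1b2, Eef1d, Eef1g, Eef2, Eif3e, Eif3f, Eif3h and Eif4b), with a log2 ratio of -0.68. The other 56 genes summed to 182162 and 136465 UMIs, with a log2 ratio of -0.02. With ribosomal protein and mitochondrial genes left out of both totals, their sum was also lower in D, at -0.36, and the TOP-list sum was at -1.02. Without the 379 and 16 cells with at least 2 proliferation markers the log2 ratio of the factor sum was -0.47, and without the 9 and 395 cells with at least 2 UMIs of markers of other cell types it was -0.48. In sums over cells, fewer cells with a transcript and fewer transcripts per cell cannot be told apart.

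The choice of total moves every ratio. The 77 genes of cytosolic ribosomal proteins made up 37.2% of all UMIs in P against 21.2% in D, and they enter the total behind every CPM value. Over all 12904 genes the median log2 ratio of CPM was 0.39. With ribosomal protein and mitochondrial (mt-) genes left out of both totals, every log2 ratio was 0.33 lower and the median of all genes was 0.06. On the CPM scale the median factor gene was at 0.11 (medians of the interval bounds -0.03 to 0.24), 29 of 65 genes were below 0 and 36 above. On the second scale the median was -0.23, with 43 below 0 and 22 above. Both medians were under those of all genes, of which 9558 were above 0 on the CPM scale and 7046 on the second. The 9 TOP-list genes were all below 0 on both scales, with medians of -0.77 and -1.11, beside -0.83 and -1.16 for the ribosomal protein genes, all 77 of which were also below 0. The other 56 factor genes had medians of 0.20 and -0.13.

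On the CPM scale 11 of 65 factor genes (16.9%) were at least 1.5-fold lower in D, where 11.5% of all genes were. A further 14 (21.5%) were at least 1.5-fold higher in D, where 36.4% of all genes were. At 2-fold, 3 were lower (Eif4b, Eif4ebp1 and Eif3e, background 6.89%) and 2 higher (Eif4ebp2 and Eif5a2, background 15.5%). Without ribosomal protein and mt- genes in the total, 19 (29.2%) were at least 1.5-fold lower and 5 (7.69%) at least 1.5-fold higher, beside 17.6% and 18.2% of all genes. At 2-fold on that scale 9 were lower, beside 10.4% of all genes, and only Eif4ebp2 was higher, beside 8.62%. On both scales factor genes at least 1.5-fold lower in D were a larger share than among all genes, and those higher a smaller one. For genes at least 2-fold lower, the share was larger only on the second scale (13.8% beside 10.4%). On the CPM scale it was smaller (4.62% beside 6.89%).

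**Figure D1:**
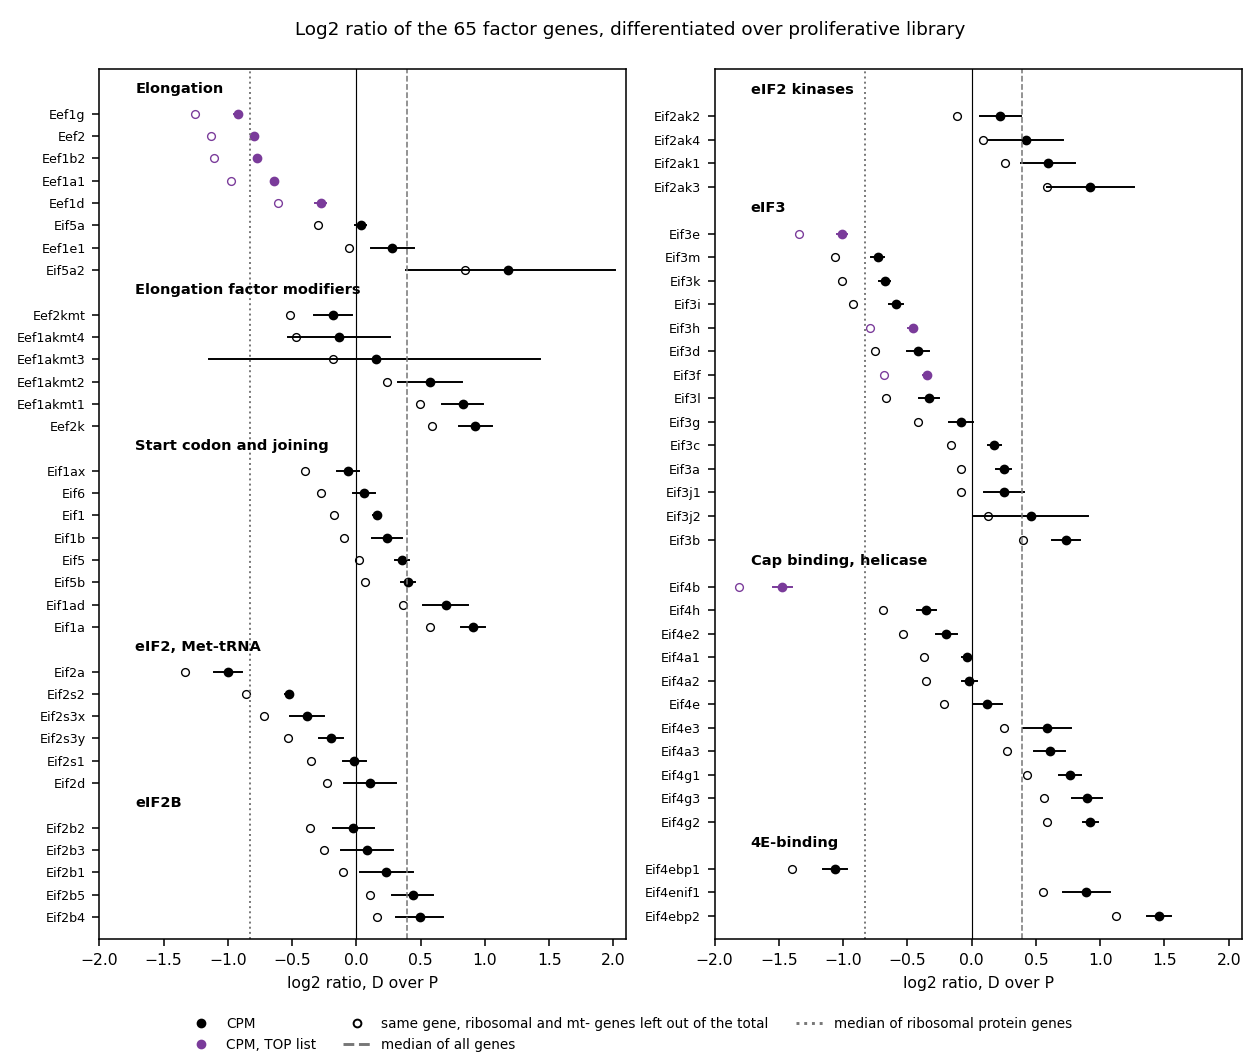
Log2 ratio of D over P (x axis) for each of the 65 factor genes, grouped by role. Filled points are CPM ratios with 95% counting intervals, open points are the same gene with ribosomal protein and mt- genes left out of the total, purple marks the 9 TOP-list genes, and the dashed and dotted lines are the CPM medians of all genes (0.39) and of the ribosomal protein genes (-0.83). The purple points all lie left of 0, Eif4b is the lowest (-1.47) and Eif4ebp2 the highest (1.46).

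Start-site letters were taken from RefSeq promoter entries on GRCm38.p6 for the TOP-list members, to show which of them carry the pyrimidine tract at the annotated start. Each run below spans 5 bases before the annotated start and the 25 bases from it, 5′ to 3′ on the transcript strand. Capitals mark every stretch of a C followed by at least 4 bases that are each C or T.
Eef1a1, chr9:78481700-78481729, minus strand: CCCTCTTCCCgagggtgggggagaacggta
Eef1b2, chr1:63176826-63176855, plus strand: gttccgccggaagtagccgaggccttgcgt
Eef2, chr10:81176626-81176655, plus strand: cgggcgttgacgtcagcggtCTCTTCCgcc
Eif3f, chr7:108934410-108934439, plus strand: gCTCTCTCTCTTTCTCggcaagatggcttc
Eif4b, chr15:102073768-102073797, plus strand: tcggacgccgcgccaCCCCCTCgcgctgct
The remaining 4 TOP-list members were not matched to an entry. Eef1a1 and Eif3f had such a stretch beginning within 5 bases of the start, Eef2 and Eif4b had one further in, and Eef1b2 had none in the window. Among all 51 members with a usable entry, 14 (27.5%) had a stretch beginning within 5 bases of a start, beside 21.2% of 27025 genes in the table. Those 14 had a median log2 ratio (CPM) of 0.43 and the other 37 one of 0.11. The letters at annotated starts did not separate the factor genes that were lower in D. Eif3l and Eif2s3x, which are not on the TOP list, had such starts and were lower in D (log2 ratios -0.33 and -0.38).
Eif3l, chr15:79075218-79075247, plus strand: CTTCTTCCgCTCTCTCCCacgggCTTCTgg
Eif2s3x, chrX:94212627-94212656, minus strand: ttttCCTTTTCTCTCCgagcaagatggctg
An annotated start is not a measured one, and these 3′ libraries hold no reads of 5′ ends. The Eef1a1 entry lies inside the annotated span of its gene, which runs to 78489151 on the minus strand. Whether the stretch marked for Eef1a1 is in its mRNA, or is its TOP, was not tested.

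Elongation factors were the largest group by UMIs and mostly lower in D. Eef1a1, which delivers aminoacyl-tRNA to the ribosome (chr9:78478449-78489151), had 255969 UMIs or 9594 CPM in P and 124747 or 6143 CPM in D. Its log2 ratio was -0.64 (-0.65 to -0.63), and it made up 38.0% and 33.8% of all factor UMIs. The exchange factor that recharges eEF1A was also lower. Its subunit Eef1b2 had 2977 CPM in P and 1742 in D (log2 ratio -0.77), Eef1g 1081 and 570 (-0.92), and Eef1d 427 and 353 (-0.28). Eef1d was the TOP-list member with the smallest difference, and 4.27% of its exon bases overlap Naprt on the same strand. Eef2, the translocase, had 1956 CPM in P and 1125 in D, a log2 ratio of -0.80 (-0.82 to -0.78).

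The elongation factors outside the TOP list did not share this direction on the CPM scale. Without ribosomal protein and mt- genes in the total, 7 of 8 tested elongation genes were below 0, beside 5858 of all 12904 genes. Eif5a was then at -0.30. Eef1e1, which was listed here with the elongation genes and need not act in elongation, was at -0.06, against 0.28 on the CPM scale. Eif5a, which relieves stalled ribosomes, had 373 CPM in P and 382 in D, and its interval included 0 (log2 ratio 0.03, -0.01 to 0.08). Eif5a2 was rare, at 22 and 38 UMIs, with a log2 ratio of 1.18 (0.39 to 2.01). Eef1a2, the eEF1A form of neurons and striated muscle, had 0 of 26681469 UMIs in P and 0 of 20305621 in D, which, at a limit of 3 counts, allows up to 0.112 and 0.148 CPM.

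Of 6 enzymes that modify elongation factors, 2 were at least 1.5-fold higher in D on the CPM scale, where 36.4% of all genes were, and 1 was on the other scale. Eef2k, the kinase that inhibits eEF2, had 32.8 CPM in P and 62.3 in D, a log2 ratio of 0.93 (0.80 to 1.05), which stayed at 0.59 without ribosomal protein and mt- genes. The eEF1A lysine methyltransferase Eef1akmt1 had 21.8 and 38.6 CPM (log2 ratio 0.83). Eef2kmt, the eEF2 lysine methyltransferase, had 34.8 and 30.6 CPM (-0.18), and Eef1akmt3 had 13 and 11 UMIs, too few to order.

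Subunits of the eIF3 complex differed in both directions on the CPM scale. The 12 core subunits spanned 1.74 on the log2 scale, from Eif3e at -1.01 to Eif3b at 0.74. Eif3e had 702 CPM in P and 350 in D, Eif3m 371 and 224, Eif3k 540 and 338, and Eif3i 282 and 188. Eif3h, Eif3d, Eif3f and Eif3l were lower by log2 ratios of -0.46 to -0.33, and Eif3g was at -0.08 (-0.17 to 0.01). Eif3a, Eif3c and Eif3b were above 0 on the CPM scale, with Eif3a at 209 and 248 CPM, Eif3c at 247 and 279, and Eif3b at 46.2 and 77.0. Without ribosomal protein and mt- genes in the total, Eif3a and Eif3c were at -0.09 and -0.16, and only Eif3b among the 12 stayed above 0 (0.40). The order of the subunits does not depend on that choice, and the ratio of the most to the least abundant subunit was 16.0 in P and 7.56 in D.

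**Figure D2:**
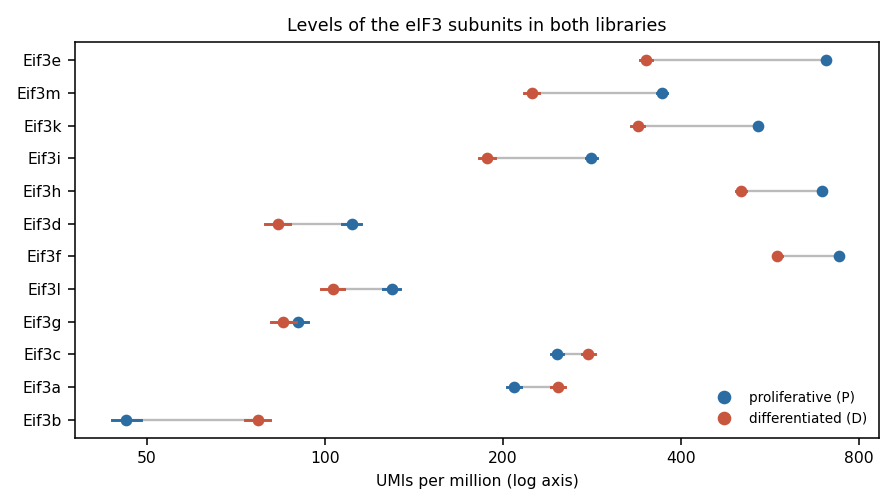
Levels of the 12 core eIF3 subunits in CPM (log axis) in P (blue) and D (red), ordered by log2 ratio, with 95% counting intervals as bars. Eif3e, at the top, goes from 702 in P to 350 in D, and Eif3b, at the bottom, from 46.2 to 77.0.

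Among the cap-binding factors, Eif4b was the lowest of all 65 genes in D and the eIF4G scaffolds were higher. Eif4b, the cofactor of the eIF4A helicase (chr15:102073773-102097173), had 6938 UMIs or 260 CPM in P and 1903 or 93.7 CPM in D. Its log2 ratio was -1.47 (-1.55 to -1.40), further from 0 than that of the lowest ribosomal protein gene, Rpl13a (-1.36). Eif4h, a related helicase cofactor, had 151 and 118 CPM (-0.35). The helicases themselves differed little on the CPM scale. Eif4a1 had 454 CPM in P and 443 in D and Eif4a2 189 and 186, with intervals that included 0, and both were at about -0.36 without ribosomal protein and mt- genes (-0.37 and -0.35). Eif4e, which binds the cap, had 51.9 and 56.5 CPM, and its homolog Eif4e2 109 and 95.1.

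The 3 eIF4G scaffold genes were each at least 1.5-fold higher in D on the CPM scale. Eif4g1 had 75.1 CPM in P and 128 in D, Eif4g3 37.9 and 70.4, and Eif4g2, whose product lacks the eIF4E-binding site, 154 and 291. Their log2 ratios were 0.77, 0.89 and 0.92 on the CPM scale and 0.43, 0.56 and 0.59 on the other, so that only Eif4g2 was past 1.5-fold on both, by a small margin.

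The 2 detected 4E-BP genes differed in opposite directions. Eif4ebp1 (chr8:27260329-27276674) had 3530 UMIs or 132 CPM in P and 1288 or 63.4 CPM in D, a log2 ratio of -1.06 (-1.15 to -0.97). Eif4ebp2 (chr10:61428491-61452661) had 1370 UMIs or 51.3 CPM in P and 2867 or 141 CPM in D, a log2 ratio of 1.46 (1.37 to 1.55). Eif4ebp2 thus made up 28.0% (exact binomial interval 26.7 to 29.2%) of the UMIs of the pair in P and 69.0% (67.6 to 70.4%) in D. That share does not depend on the total used. Eif4enif1, which carries eIF4E into the nucleus, was also higher in D, at 15.6 and 28.9 CPM.

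Of the 8 genes listed under start codon and subunit joining, 7 were above 0 on the CPM scale and 4 on the other scale. The list included Eif6 and Eif1ad, which need not act at the start codon. They were at 0.06 and 0.70 on the CPM scale and at -0.28 and 0.36 on the other. Of all 12904 genes, 9558 and 7046 were above 0 on these scales. Eif1, which guards against wrong start sites, had 741 CPM in P and 827 in D, and Eif5b, which joins the large subunit, 210 and 277. The genes for eIF1A stood apart from each other. Eif1a had 57.0 CPM in P and 107 in D (log2 ratio 0.91), while its X-linked homolog Eif1ax had 107 and 102 (-0.07, -0.15 to 0.02). Eif1ax made up 65.2% (63.8 to 66.6%) of the pair in P and 48.8% (47.3 to 50.3%) in D. These homologs are close in sequence, so their split depends on how reads matching both were counted. The same holds for Eif2s3x and Eif2s3y. The level of the Y-linked Eif2s3y also depends on the share of cells from male mice, which was not examined. Other pairs had nearly the same split in both libraries, such as Eif4a2 at 29.4% and 29.6% of Eif4a1 and Eif4a2, and Eif1b at 5.94% and 6.26% of Eif1 and Eif1b.

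Most subunits of eIF2 were lower in D, and the eIF2 kinases were higher on the CPM scale. Eif2s2 (eIF2β) had 833 CPM in P and 580 in D (log2 ratio -0.52), Eif2s3x (eIF2γ) 47.6 and 36.5 (-0.38), and its Y-linked copy Eif2s3y 85.1 and 74.2 (-0.20). Eif2s1, the α subunit that the kinases phosphorylate, had 86.8 and 85.8 CPM, with an interval that included 0. Eif2a, which encodes a separate initiator-tRNA binding protein and not eIF2α, had 91.0 and 45.6 CPM (-0.997, -1.11 to -0.89). The 5 subunits of the exchange factor eIF2B ran from -0.02 (Eif2b2) to 0.49 (Eif2b4). The kinases Eif2ak1, Eif2ak2, Eif2ak3 and Eif2ak4 were all above 0 on the CPM scale, as were 9558 of all 12904 genes. On the other scale Eif2ak2 was at -0.11. The highest was Eif2ak3 (PERK) at 127 and 183 UMIs (0.92, 0.59 to 1.26). Only Eif2ak3 was past 1.5-fold on both scales, on the second by a very small margin (0.586, at a cutoff of 0.585).

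Within each library, the factor share followed the ribosomal protein share of a cell. Cells were thinned to 2100 UMIs and sorted into steps of 5 percentage points of ribosomal protein UMIs, and factor UMIs were taken as a percentage of UMIs without ribosomal protein and mt- genes. In P that percentage went from 1.82% in the 34 cells with 10 to 15% ribosomal protein UMIs to 6.88% in the 78 cells with 50 to 55%. In D it went from 1.51% in 30 cells at 5 to 10% to 3.61% in 83 cells at 30 to 35%. The TOP-list genes made up most of this gradient, from 1.11% to 5.44% in P and from 0.745% to 2.58% in D. The other 56 genes went from 0.702% to 1.44% in P and from 0.766% to 1.03% in D. The mitochondrial share went the other way, from 7.98% to 3.61% of UMIs in P and from 8.41% to 6.15% in D, and its part in these values was not tested.

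**Figure D3:**
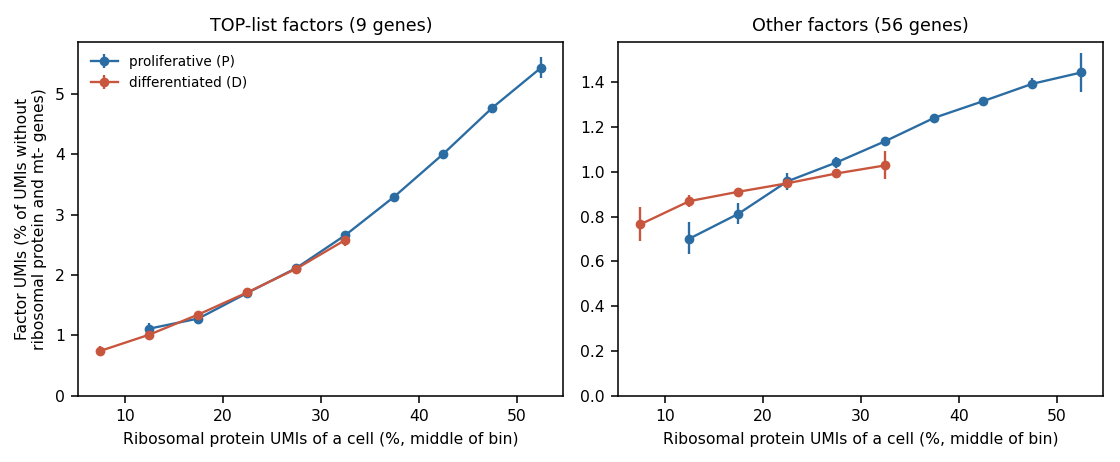
Factor UMIs as a percentage of UMIs without ribosomal protein and mt- genes (y axis) against the ribosomal protein share of the cell (x axis, middle of 5-point steps) in P (blue) and D (red), for the 9 TOP-list genes (left) and the other 56 (right), with 95% counting intervals. On the left both libraries lie on nearly one curve where they overlap, for example 2.12% in P and 2.11% in D at 25 to 30%. Points are drawn at the middle of a step, although the mean ribosomal protein share in that step was 28.0% in P and 26.8% in D.

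Between the libraries, cells of like ribosomal protein share had like shares of the factor sum and of the TOP-list genes. The median cell held 38.9% ribosomal protein UMIs in P and 21.4% in D, and both libraries had cells in 5 of the steps, from 10 to 35%. The 10th percentile was 29.1% in P and the 90th was 26.6% in D. The step from 25 to 30% thus set cells of the low end of P against cells of the high end of D. Cells were not matched within a step, where mean shares still differed (28.0% in P and 26.8% in D at 25 to 30%), and no correction was made for this. In the step from 20 to 25% the factor share was 2.66% in both libraries (log2 ratio -0.00, -0.04 to 0.04). Over the 5 steps the log2 ratio of the factor sum lay between -0.07 and 0.11, and that of the TOP-list genes between -0.14 and 0.07, where the libraries as wholes differed by -0.81 and -1.02 on this scale. Eef1a1 was at 0.04 to 0.27, with intervals that included 0 in the lowest and the highest step, and the other 8 TOP-list genes together at -0.36 to -0.12.

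Some factors differed between the libraries also in cells of like ribosomal protein share. In the step from 25 to 30%, with 487 cells of P and 752 of D, 59 members had at least 20 UMIs. Of these, 5 (8.47%) were at least 1.5-fold lower in D, beside 12.5% of all genes, and 7 (11.9%) at least 1.5-fold higher, beside 27% of all genes. The lower ones were Eif4b, Eif4ebp1, Eif4e2, Eif2s3y and Eif2s2, and the higher ones Eif4ebp2, Eef2k, Eef1akmt1, Eif3b, Eif3j1, Eif4g3 and Eif4e3. Both counts were smaller shares than among all genes, and the intervals of Eif3j1 and Eif4e3 included 0. Other steps did not all share these directions, with Eif4e2 at 0.25 and Eif2s2 at 0.06 at 10 to 15%, Eif4g3 at -0.27 there, and Eif4e3, on 1 UMI in D, at -1.54 at 30 to 35%. Eif4b had 373 counts per 1000000 UMIs of this scale in P and 133 in D there, a log2 ratio of -1.49 (-1.80 to -1.18), and it was between -1.996 and -1.15 over all 5 steps. Eif4ebp1 was between -2.66 and -0.53, and Eif4ebp2 between 0.82 and 1.43. The intervals of both 4E-BP genes included 0 in the step from 10 to 15%, and that of Eif4ebp2 also from 30 to 35%. Counts in the sparsest steps were low, with 4 UMIs of Eif4ebp1 in D at 30 to 35% and 5 of Eif4ebp2 in P at 10 to 15%. Eif3e, at -1.34 over all cells on this scale, was between -0.59 and -0.26 over the 5 steps. Eef2, at -1.13 over all cells, went from -0.79 (-1.08 to -0.48) at 10 to 15% through 0.04 at 25 to 30% to 0.31 (0.15 to 0.47) at 30 to 35%.

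**Figure D4:**
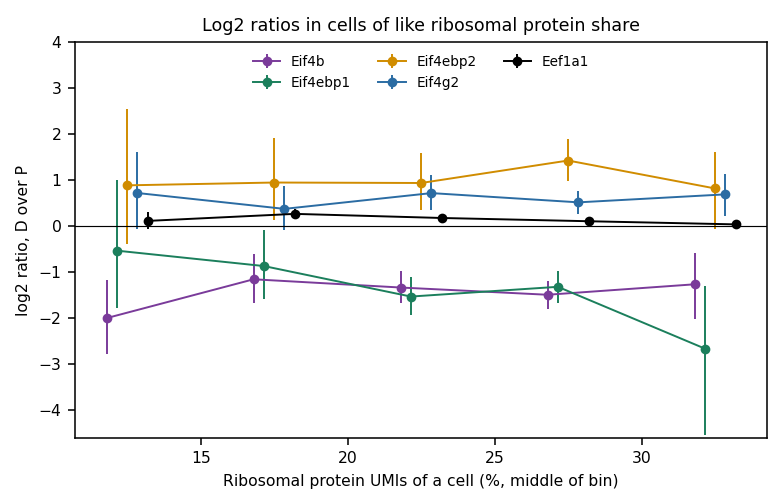
Log2 ratio of D over P (y axis) for 5 factor genes in cells of like ribosomal protein share (x axis, middle of 5-point steps, points offset sideways for legibility), without ribosomal protein and mt- genes in the total and with 95% counting intervals. Eif4b (-1.996 to -1.15) and Eif4ebp1 lie below 0 in every step and Eif4ebp2 (0.82 to 1.43) above it, while Eef1a1 lies between 0.04 and 0.27.

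Clusters of cells were formed in each library without factor and ribosomal protein genes among the features. In P, the 2540 cells of cluster P1, led by Sprr3, Cnfn and Sprr2f, had the lowest factor share (3.82%) and the lowest ribosomal protein share (33.8%). The highest shares were in P2, led by Fmo2, Mmp7 and Agr2 (5.40% and 41.8%), followed by P0, led by Ctla2a, Nbl1 and Sparc (5.04% and 40.5%). The proliferative-like cluster P3, 356 cells with 5 proliferation markers among its top 10 genes, lay between them at 4.29% and 34.9%. The factor share of P3 was below that of P0 and P2. In P1, 18 of 65 members were at least 1.5-fold lower than in the other cells of P, among them Eef2, Eef1g and Eif2a, and 1, Eif2ak3, was higher. Of all genes 31.9% were that much lower in P1 and 10.7% that much higher, so the count of lower factor genes was near the background.

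In D, the clusters differed less from each other. The factor share was 2.63% in D0, led by Krt1, Reg1 and Ces1d, 2.66% in D1, led by Acta2, Cav1 and Ms4a10, and 2.25% in the luminal-like cluster D2, which had Upk3a and Upk3b among its top 10 genes. D2 also had the lowest ribosomal protein share (18.3%, beside 22.4% and 21.5%) and the most UMIs per cell (a median of 4635.5). The highest cluster of D was below the lowest of P for factors and for ribosomal proteins alike.

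The 4E-BP genes differed between clusters as well. Eif4ebp2 made up 24.5% of the pair in P0, 26.1% in P1, 38.4% in P2 and 37.3% in P3, and 71.1% in D0, 55% (50.7 to 59.2%) in D1 and 71.3% in D2. D1, in which 6 of 7 basal markers and 9 of 9 detected proliferation markers were higher than in the other cells of D (proliferation sums of 92.4 CPM, beside 8.10 in D0 and 8.05 in D2), stood apart from the rest of D through Eif4ebp2, at 102 counts per 1000000 UMIs without ribosomal protein and mt- genes beside 223 in D0 and 219 in D2. D1 also had the lowest Eif1ax share of the eIF1A pair, 39.0%, against 54.3% in D0 and 48.6% in D2.

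**Figure D5:**
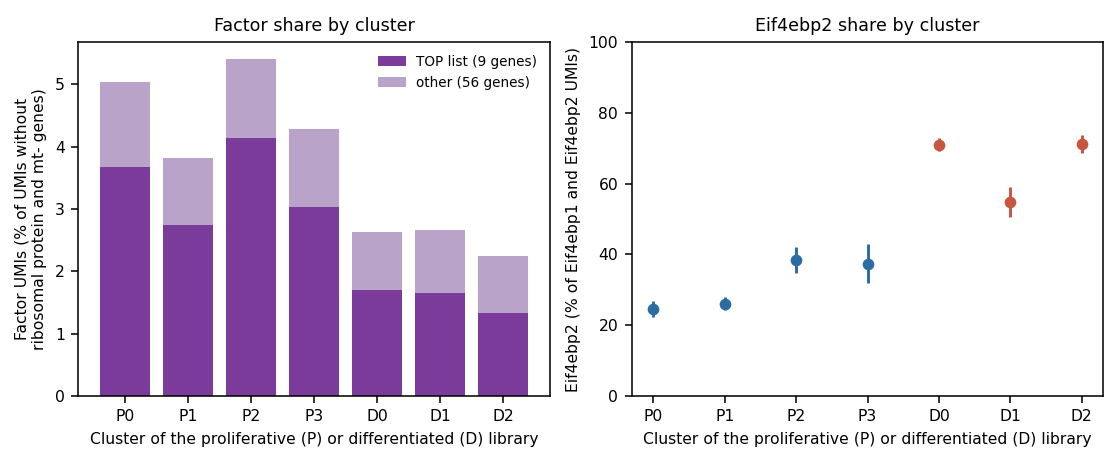
Left, factor UMIs as a percentage of UMIs without ribosomal protein and mt- genes in the 4 clusters of P and the 3 of D, stacked for the 9 TOP-list and the other 56 genes, from 5.40% in P2 down to 2.25% in D2. Right, Eif4ebp2 as a percentage of Eif4ebp1 and Eif4ebp2 UMIs with exact binomial 95% intervals, between 24.5 and 38.4% in clusters of P and between 55 and 71.3% in clusters of D.

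Other genes of the translation pathway, from fixed lists, were mostly near the median of all genes (0.39 on the CPM scale). Termination and recycling factors had a median log2 ratio of 0.25 with 7 of 7 above 0, beside 9558 of all 12904 genes. The 22 aminoacyl-tRNA synthetases and their partners had a median of 0.44. Of these, 8 were at least 1.5-fold higher in D, the same share as the 36.4% of all genes. Only Sars was that much lower (-0.70), beside 11.5% of all genes, and Wars was the highest (1.31). The mTORC1 axis had a median of 0.40 with 5 of 12 at least 1.5-fold higher, beside the same background of 36.4%. They were the inhibitors Tsc2 (1.11) and Sesn2 (1.12), the activator Rheb (0.67), the mTOR partner Mlst8 (0.89) and Larp1 (0.66), while the inhibitors Tsc1 (0.25) and Ddit4 (-0.00) were not past 1.5-fold. The mitochondrial translation factors had a median of 0.20, and the integrated stress response genes one of 0.40, with Atf4 at 0.24 and Ddit3 at -0.90. Of 15 ribosome biogenesis genes, whose median was 0.26, 2 were at least 1.5-fold lower in D, Npm1 (-1.54) and Myc (-1.44), and 1 was higher, Bop1 (1.28). Of all genes 11.5% were that much lower and 36.4% that much higher. The poly(A)-binding group had a median of 0.27, with Pabpc1, whose mRNA carries a TOP, at -0.50. Of the other TOP mRNAs, Rack1 was at -0.87, Nap1l1 at -0.51 and Hnrnpa1 at -0.47, but Tpt1, at 9530 CPM in P and 9574 in D, was at 0.01 (-0.00 to 0.02).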

How the data were processed

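Single-cell RNA-seq of the P and D libraries was analysed from deposited raw UMI counts per gene and barcode, which per the labels the authors made with bcl2fastq 2.19.0 and Cell Ranger 3.0.2 on GRCm38/mm10. Following the study, cells with over 800 genes and at most 12% mt- UMIs were kept (6826 cells in P with 800 genes included). No doublet caller was run. UMI sums of each library were scaled to 1000000 (CPM). Intervals are exact 95% Poisson, binomial or conditional binomial intervals. A 3′ UMI counts 1 molecule, so levels were not divided by length. The depth of 26681469 UMIs in P and 20305621 in D puts 1 UMI at 0.0375 and 0.0492 CPM.

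Clusters came from Seurat 5.3.0 under R 4.3.3 (2000 variable features, less the 10 factor or ribosomal protein genes among them in D, 25 and 21 components, resolution 0.2). Other steps used Python 3.11.15 with scipy 1.17.1. Thinning left out 180 cells of P and 479 of D, and steps under 20 cells left out 14 and 5 more. Scripts were tested on simulated data.

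Members and lists were chosen with earlier results of these data known, and the TOP list from general knowledge. Genes named were TOP-list members, those at least 1.5-fold apart on both scales, homolog pairs and the 2 most abundant per role. Other named genes, including the remaining eIF3 subunits and genes of other lists, and the step from 25 to 30%, were chosen after values were seen. Alternatives changed the total, cell and count filters, thinning and cell sets.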

Additional observations from a re-analysis of the deposited data

Results flagged for a closer look

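Barcodes that failed the cell filter also held factor UMIs. In the 1376 barcodes left out of P, factor genes made up 2.64% (2.61 to 2.66%) of non-mitochondrial UMIs, beside 2.68% in the kept cells. In the 2079 left out of D they made up 1.22% (1.21 to 1.24%), beside 1.96% in the kept cells. Ribosomal protein genes made up 9% of non-mitochondrial UMIs in the barcodes left out of D and 22.8% in the kept ones.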

How the results depend on the processing

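Without ribosomal protein and mt- genes in the total, and with libraries scaled by the median ratio of all genes, the median factor log2 ratio was -0.23 and -0.32, the TOP-list median -1.11 and -1.19, and the summed ratio -0.81 and -0.90. Members at least 1.5-fold lower numbered 19 and 22, and those higher 5 and 2. Beside the 19 and the 5 stand 17.6% and 18.2% of all genes. For the median-ratio scale the share of all genes is not given here, so the 22 and the 2 cannot be set against it. In cells with 25 to 30% ribosomal protein UMIs, a choice made after seeing the data, the counts were 5 and 7, the TOP-list median -0.011 and the summed ratio -0.028. There 4 named genes turned direction, with Eef1a1 at 0.11, Eef1g at 0.040, Eef2 at 0.044 and Eif2ak1 at -0.16. The summed ratio was -0.50 with over 500 genes and at most 20% mt- UMIs, -0.45 with over 1000 genes and at most 10%, -0.55 in all barcodes, -0.48 as a mean over cells and also without the 5% of cells with most UMIs, -0.49 in thinned cells and -0.38 without Eef1a1. The TOP-list median was -0.80 with over 500 genes and at most 20% mt- UMIs, -0.86 in all barcodes and -0.75 in thinned cells. At Louvain resolution 0.4 the Eif4ebp2 share of the pair spanned 22.5 percentage points over the clusters of P, beside 13.9. Of 20 named genes past 1.5-fold, at least 19 kept their direction under every other alternative, and the exception, Eif5a2, was under 100 UMIs. Leaving out cycling cells, cells with markers of other cell types, or shared barcodes moved none of the 5 summary values past counting error or 1.5-fold. Scaling by the median ratio took 7 of the 20 under 1.5-fold (Eif1a, Eif2ak1, Eif4g1, Eif4g3 and, narrowly, Eef2k at 0.50, Eif2ak3 at 0.50 and Eif4g2 at 0.50). No paired analysis was possible because each group held 1 library. Depth limits Eef1akmt3, Eif5a2 and Eif3j2, with 24 to 174 UMIs in all, and the steps with few cells.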
